A study of Rattus norvegicus with 12 samples.

Results

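Histone genes package DNA, and in rat joint RNA they form a family of 47 protein-coding genes among the 23144 genes listed in the deposited tables. They were chosen by name alone, as rows whose symbol starts with Hist and a digit or follows the patterns H1f, H2a, H2b, H3 or H4 with optional letters and a digit. No measured value entered that name rule, though the members were chosen with earlier results of these data known. The 47 genes carry 40 distinct symbols, since Hist1h4m stands on 6 rows and some other symbols on more than 1. By symbol, 35 are replication-dependent histone genes. Of the other 12, 7 are variants (H1f0, H1f8, H1f10, H2az1, H2az2, H3f3a and H3f3b). A further 3 are processed copies of variant genes (H2az1-ps1, H3f3a-ps3 and H3f3a-ps9), and 2 are set apart by name (H2bu1 and H4f3). This split of the 12 was made after the files had been seen. The symbol rule itself counts all 12 as variants, and neither H2bu1 nor H4f3 passed the test in any comparison.

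The study sequenced RNA from joint tissue of rats in 12 libraries, 4 labelled treatment, 4 labelled model and 4 labelled sham. Its title names Yi-Ping Lin Circum-knee acupuncture for osteoarthritis of the knee. How the model was made, what the treatment group received beyond that title, and the strain, age and sex are not stated in the labels. Separate animals for the libraries of a group are not stated either, so each p-value reflects only library-to-library spread, which may be technical. Libraries held 15513116 to 17218402 reads on genes. Joint markers were present in every group: the summed chondrocyte list (10 genes such as Col2a1 and Acan) stood at 3802 to 23740 RPM (reads scaled to library size, in the usual unit) in treatment, 2267 to 7794 in model and 1414 to 3473 in sham.

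Replication-dependent histone genes are transcribed mainly while a cell copies its DNA, lie in clusters of near-identical copies, and give mRNAs that end in a stem-loop bound by Slbp in place of a poly(A) tail. Variant histone genes are mostly single genes with introns and a poly(A) tail, and are also transcribed outside DNA replication. Among them H2A.Z marks promoters and H3.3 is laid down at active genes, while the linker histone of H1f0 is known to accumulate in cells that have stopped dividing.

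Most histone genes lay together. On the authors' build, mRatBN7.2, 30 of the 47 were on chromosome 17 between positions 41135489 and 42800381, 4 were on chromosome 10 and 4 on chromosome 2. Promoters of 4 genes are shown because the results turn on them: Hist3h2ba, the replication-dependent gene with the lowest fold change in both treatment comparisons; H2bu1, its neighbour, which did not pass the test; H1f2, which held most replication-dependent reads; and H2az1, a variant that fell. Sequences are from RefSeq on GRCr8 (a later build), from 250 bases before to 50 after the gene start, read 5′ to 3′ on the gene's strand. They are chr10:44225171-44225470 on the plus strand, chr10:44233016-44233315 on the minus strand, chr17:41820404-41820703 on the minus strand and chr2:229028845-229029144 on the plus strand. Capitals mark the CCAAT box (CCAAT), the TATA box (TATAAA) and the octamer (ATTTGCAT), each on either strand; marked runs do not overlap.
Hist3h2ba: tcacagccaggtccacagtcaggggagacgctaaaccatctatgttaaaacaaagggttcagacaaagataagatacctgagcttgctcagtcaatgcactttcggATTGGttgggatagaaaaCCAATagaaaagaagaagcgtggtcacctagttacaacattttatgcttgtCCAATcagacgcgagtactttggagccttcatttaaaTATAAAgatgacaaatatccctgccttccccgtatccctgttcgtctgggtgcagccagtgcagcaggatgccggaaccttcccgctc
H2bu1: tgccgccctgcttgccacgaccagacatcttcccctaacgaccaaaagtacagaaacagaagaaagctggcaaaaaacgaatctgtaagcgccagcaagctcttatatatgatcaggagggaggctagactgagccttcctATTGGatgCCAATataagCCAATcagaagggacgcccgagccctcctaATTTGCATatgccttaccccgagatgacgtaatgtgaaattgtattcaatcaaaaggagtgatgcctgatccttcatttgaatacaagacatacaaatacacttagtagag
H1f2: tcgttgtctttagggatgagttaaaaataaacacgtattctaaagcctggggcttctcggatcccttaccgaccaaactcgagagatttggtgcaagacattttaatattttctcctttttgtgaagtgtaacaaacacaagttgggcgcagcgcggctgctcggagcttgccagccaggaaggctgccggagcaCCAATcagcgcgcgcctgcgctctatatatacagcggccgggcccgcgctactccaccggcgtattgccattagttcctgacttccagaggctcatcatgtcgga
H2az1: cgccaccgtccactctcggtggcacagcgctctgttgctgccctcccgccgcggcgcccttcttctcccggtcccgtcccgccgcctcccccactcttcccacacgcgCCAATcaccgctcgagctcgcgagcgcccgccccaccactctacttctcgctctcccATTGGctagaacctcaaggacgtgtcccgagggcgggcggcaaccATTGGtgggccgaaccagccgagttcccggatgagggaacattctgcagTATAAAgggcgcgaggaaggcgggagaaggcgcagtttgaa

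Of the 47 rows, 32 have a symbol that lies between the same neighbouring genes in both annotations. Motifs were counted for the 26 of these whose symbol stands on a single row and has 1 promoter in the RefSeq table, which leaves out 3 processed copies, both Hist1h2bo rows and 1 Hist1h4m row. CCAAT stood in 23 of the 26, against 37.5% of 33469 promoters of that length. TATAAA stood in 12 of the 26 (14.2% of all promoters), the octamer in 8 (1.78%) and any of the E2F letters TTTCCCGC, TTTGGCGC, TTTCGCGC or TTTGCCGC in 5 (2.14%), all on either strand. TTTGAA, the letters of the cell cycle homology region, stood in 11 of the 26, against 18.3% of all promoters. By class, CCAAT stood in 18 of 19 replication-dependent and 3 of 5 variant promoters, TATAAA in 10 of 19 and 1 of 5, and the octamer in 7 of 19 and 0 of 5. Hist3h2ba and H2bu1, divided by 5756 bases on mRatBN7.2, both carry CCAAT 3 times. These matches describe letters within the windows.

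Replication-dependent genes were thinly covered. Of the 35, 22 averaged under 10 reads per library. H1f2 alone held 71.2% of their reads, and H1f2, Hist2h4 and Hist3h2ba together held 92.0%. Gene models of 1000 bases or more (16 genes) held 97.2% of the reads. The 19 shorter models (median 623 bases) held 1502 reads over all 12 libraries, against 51480 for the longer ones. H2bc18, the fourth by reads, also has a long model (3196 bases). The labels do not say whether RNA with a poly(A) tail was selected. Among RNAs known to lack such a tail, Rpph1 (the RNA of RNase P) had at most 4 reads in any library and Rn7sl1 at most 2. Rmrp, Rn7sk, Rn7sl and Terc, also looked for, had no row, and whether such selection took place was not tested.

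**Figure D1:**
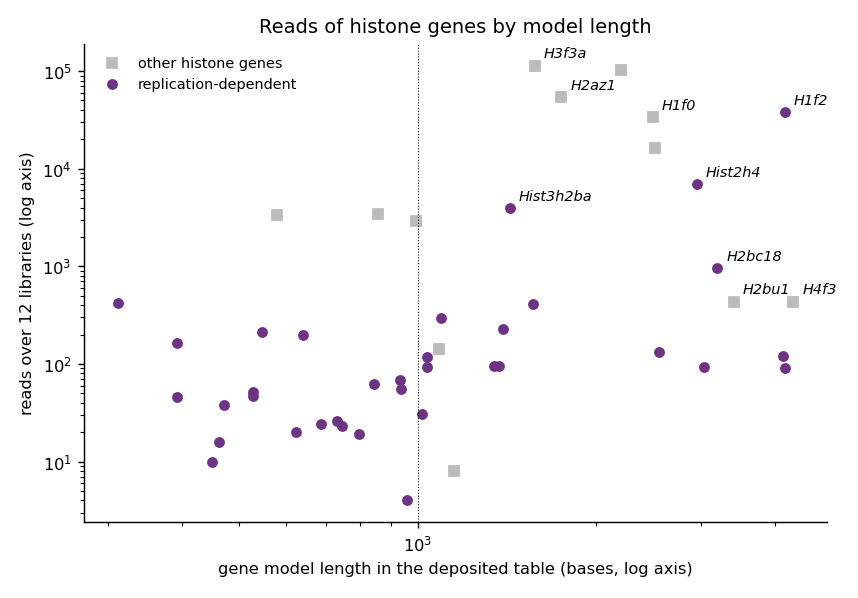
Reads over 12 libraries (log axis) against the length of each gene model in bases (log axis), for 35 replication-dependent genes (circles) and 12 other histone genes (squares); the dotted line stands at 1000 bases. Below it no replication-dependent gene exceeds 420 reads, and H1f2, Hist2h4 and Hist3h2ba are the 3 highest circles above it.

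Copies limit what a row can mean. Of the 47, 18 overlap another gene model, 17 of them on the opposite strand: H1f2 overlaps a Hist1h4m model and H2az2 overlaps Ppia. Whether counting used strand, and how reads matching several copies were handled, is not given in the sources used here. Values of the Hist1h4m, Hist1h3b and Hist1h2bo rows are therefore uncertain between copies, and antisense reads cannot be told apart. In 5 rows the description names no histone or another family than the symbol (H2ac25, Hist1h2ao, Hist1h2ail1, H4f3 and H2bu1). RefSeq places the symbols H3f3a and H3f3b the other way round: the row called H3f3a here lies on chromosome 10 (101256480 to 101258709, minus strand) and the row called H3f3b on chromosome 13 (92533298 to 92544908, minus strand). Both genes encode the same H3.3 protein. The row Hist2h4 lies on chromosome 17 (42480313 to 42485370, plus strand). RefSeq has no entry under that symbol, and between the same neighbouring genes it lists H2bc9, Hist1h2ac, Hist1h4b, H2bc12 and H2ac12. The Hist2h4 row also overlaps another gene model on the opposite strand, so which gene its reads belong to is uncertain.

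Treatment against model sets the treatment libraries beside those of the model. In limma, on log2(value + 1), across all 20328 genes tested, 44 of the 47 histone genes could be tested (2 were below the filter on low values and 1 is not listed), and 15 fell and 0 rose at an adjusted p under 0.05. Over all genes, 10.5% were lower and 3.6% higher. The median log2 fold change was -1.25 over the 44, against 0.02 over all genes. Of replication-dependent genes, 9 of 33 fell, with a median of -1.37. That count was 3 without model 1 or model 4, 4 without treatment 1, 5 without treatment 2 or model 3, and 12 without model 2. The 9 include Hist1h2bg and a Hist1h3b row, with 0 reads in treatment against 13 and 17 in model. These 2 passed the filter only through the model libraries and could not be called higher. At a mean value of at least 10 the count was 6. Of variants, 4 of 6 fell, with a median of -1.12, and 2 of 3 processed copies fell. In bulk tissue fewer cells of a type and less RNA per cell cannot be told apart. Of the 44, 18 had groups that did not overlap, against 22.2% of all genes tested. The 15 rest partly on single libraries: 8 were called without treatment 1, 8 without model 1 and 6 without model 4. Hist3h2ba, Hist2h4, 1 row of Hist1h2bo, H3f3b, H2az1-ps1 and H3f3a-ps9 were called whichever library was left out. In the authors' deposited table of changed genes for this comparison, 16 histone genes are listed among 3363, all lower.

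Treatment was set against sham in the same way. Of 43 histone genes tested among 20352 genes (4 were below the filter), 21 fell and 1 rose, where 19.5% of all genes were lower and 17.3% higher. The median was -1.26, against -0.01 over all genes. Of replication-dependent genes, 16 of 32 fell, with a median of -1.41, and that count was 10 without sham 3 or sham 4. The 16 include rows that passed the filter only through the sham libraries and could not be called higher. Such rows are Hist1h2ac (0 reads in treatment against 34 in sham), a Hist1h3b row (0 against 21) and H2ac12 (1 against 23). Hist1h2ail1 (3 against 28) and H2ac4 (1 against 15) are such rows too. At a mean value of at least 10 the count was 10. Of variants, 4 of 6 fell and H1f0 rose. Groups of 21 genes did not overlap, against 36.7% of all genes tested. In the authors' deposited table for this comparison, 20 histone genes are listed among 5704, all lower. Both comparisons use the treatment libraries, so their values are not independent. Without sham 2, sham 4 and treatment 2, the libraries richest in muscle transcripts, 13 fell and 0 rose. Of the 13, 12 were among the 21, and 8 replication-dependent genes fell in place of 16. That fit kept only sham 1 and sham 3 of the sham group. It did not remove muscle transcripts, since the summed muscle genes stood at 8914 RPM in sham 1 and 4122 in treatment 4.

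Model against sham, which compares the groups that the treatment is read against, gave 0 calls among 45 histone genes tested, and 0.0% of 20205 genes overall. At an unadjusted p under 0.05 there were 2 histone genes and 2618 genes. edgeR and voom also called 0 of all genes, and DESeq2 called 599 (3.4%), with 0 histone genes among them. The smallest adjusted p over all genes was 0.203. The median log2 fold change of the 45 was 0.07, against 0.03 over all genes. H2ac1, a testis-linked H2A gene, was the only 1 of the 45 whose groups did not overlap, with 5, 0, 0 and 1 reads in model and 7, 10, 12 and 13 in sham (log2 fold change -2.55 ± 0.64 SE, limma adjusted p = 0.234). It is called without model 1 (-3.13, adjusted p = 0.04). In treatment it had 0, 46, 1 and 0 reads, so 1 library held nearly all. Without treatment 2 it is called against sham (-3.08, limma adjusted p = 0.00194), where with all libraries it is not (adjusted p = 0.28). In both fits that call it, H2ac1 passed the filter only through the sham libraries and could not be called higher. It was singled out after its values were seen; its groups' non-overlap compares with 7.85% of all genes tested.

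Some marker lists of other cell types were lower in treatment, as the histone sums were, and others were not. The erythroid list (13 genes, all 13 lower) stood at 418 to 4955 RPM in treatment, 51190 to 83910 in model and 41000 to 64280 in sham. Neutrophil granule genes stood at 181 to 626 in treatment, 4264 to 15350 in model and 15730 to 26070 in sham, with 12 of 14 lower in either comparison, and B cell genes (11 and 12 of 13 lower) at 64.3 to 86.4 in treatment, 313 to 625 in model and 409 to 791 in sham. Of fibroblast and matrix genes, 3 of 10 rose against model and 9 against sham. The muscle list ranged from 112 to 56320 in treatment, 68.2 to 1151 in model and 1866 to 36470 in sham. Of 13 muscle genes tested, 0 passed in either comparison. Of 7 adipocyte genes, 3 fell against model and 5 against sham. Endothelial genes did not pass against model (0 of 7), while 5 rose against sham, and of 9 macrophage genes 0 passed against model, while 3 rose and 1 fell against sham. In each comparison 2 of 9 genes of T and NK cells fell, chondrocyte genes rose in 1 of 10 against model and 4 against sham, and osteoblast and osteocyte genes fell in 1 of 9 against model and 2 against sham. No gene of the erythroid, neutrophil or B cell lists was at 0 throughout a group. The part of these cells in the histone results was not tested. For scale, 10.5% of all genes tested were lower and 3.6% higher against model, and 19.5% and 17.3% against sham. Small counts, such as those of T and NK cell or osteoblast genes, are to be read beside these shares.

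**Figure D2:**
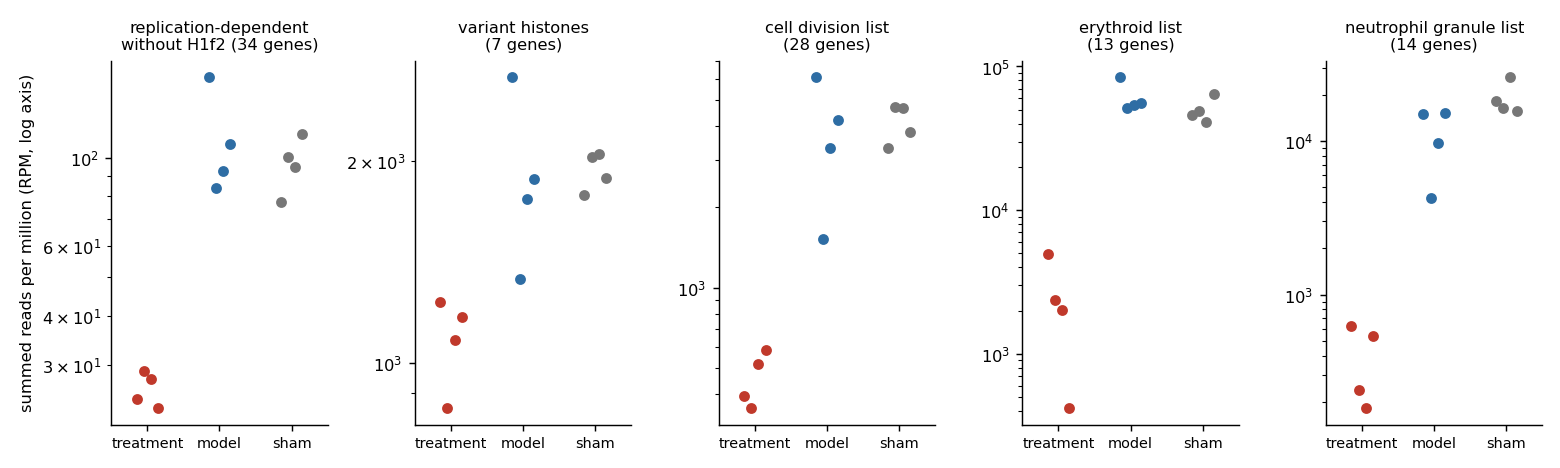
Summed RPM (log axes) per library for replication-dependent genes without H1f2, variant histones and lists of cell division, erythroid and neutrophil granule genes, with treatment, model and sham left to right. Treatment libraries are the lowest 4 in each panel.

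**Figure D3:**
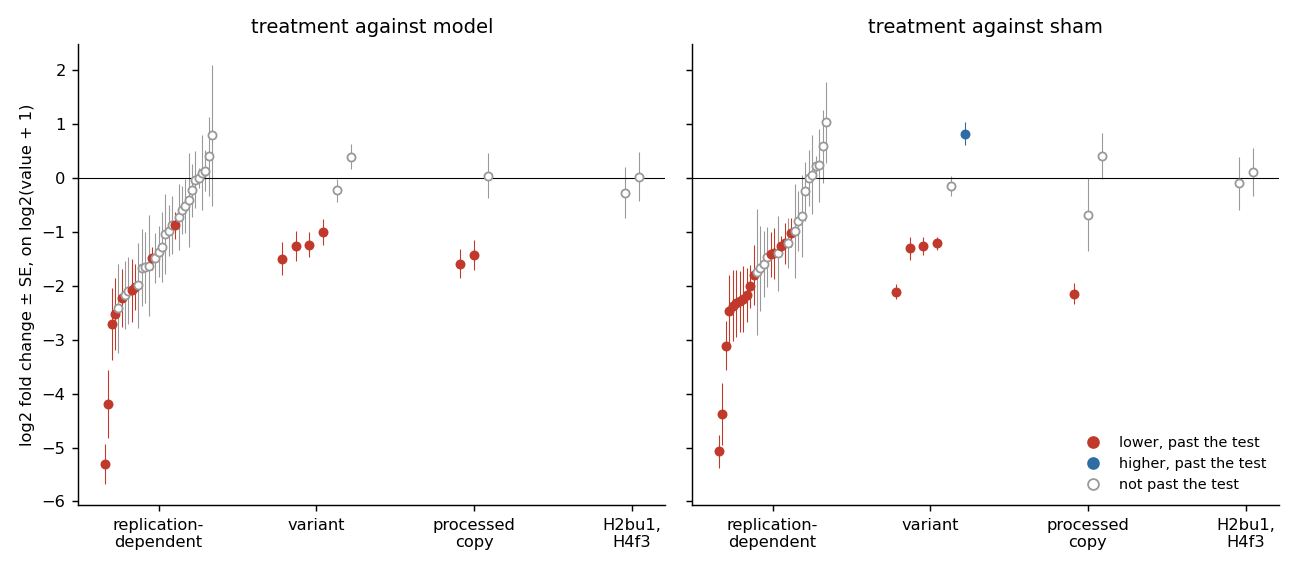
Log2 fold change with SE for each histone gene tested, treatment against model (left) and treatment against sham (right), by class; filled points passed an adjusted p under 0.05. Lower calls number 15 and 21, and H1f0 is the 1 higher call.

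Core histones form the nucleosome, around which DNA is wound. Hist3h2ba (ENSRNOG00000043419, chromosome 10, 43724930 to 43727107, plus strand), an H2B gene, had 14, 13, 10 and 8 reads in treatment libraries, against 784, 292, 532 and 541 in model and 317, 454, 452 and 563 in sham. All 4 treatment libraries lay far below the other 8, and model and sham overlapped. The log2 fold change was -5.31 ± 0.38 (SE, n = 4 each, limma adjusted p = 0.000944) against model and -5.07 ± 0.31 (adjusted p = 8.03e-06) against sham. H2bu1 (chromosome 10, 43732864 to 43736277, minus strand), the H2B-type neighbour, had 30, 66, 32 and 20 reads in treatment, 27, 53, 37 and 29 in model and 25, 49, 27 and 39 in sham, and its groups overlapped. Its log2 fold changes were 0.03 ± 0.46 (limma adjusted p = 0.973) against model and 0.12 ± 0.44 (adjusted p = 0.86) against sham. The read ratio of Hist3h2ba to H2bu1 was 0.197 to 0.467 in treatment, 5.51 to 29.0 in model and 9.27 to 16.7 in sham; the difference between their fold changes was not tested. H2bu1 was added to the named genes after its values were seen. H2ac25, next along and an H2A-named row described as a TRIM17 protein, had 8, 10, 15 and 11 reads in treatment, 8, 11, 13 and 10 in model and 5, 30, 8 and 2 in sham.

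The Hist2h4 row, H4 by symbol and description but uncertain as to its gene, held 250, 265, 280 and 248 reads in treatment. It held 1100, 716, 590 and 799 in model and 557, 731, 605 and 871 in sham. All 4 treatment libraries lay below the other 8. The log2 fold change was -1.48 ± 0.21 against model (limma adjusted p = 0.00363) and -1.26 ± 0.18 against sham (adjusted p = 0.000625). H2bc18, an H2B gene outside the main cluster, was at 34, 43, 55 and 53 reads in treatment, 93, 86, 91 and 89 in model and 102, 77, 126 and 106 in sham, again with treatment below all others. It fell by 0.87 on the log2 scale against model (adjusted p = 0.0496) and fell by 1.01 against sham (adjusted p = 0.0149). The first call is lost whichever of the 8 libraries is left out (adjusted p = 0.0531 to 0.125), and the second without sham 3 (0.0529) or without the muscle-rich libraries (0.0655). Of the copy-rich cluster, the Hist1h2bo row ENSRNOG00000068034 had 3, 1, 0 and 0 reads in treatment, 61, 18, 26 and 34 in model and 26, 44, 30 and 54 in sham. Its log2 fold changes were -4.19 ± 0.63 against model (adjusted p = 0.00429) and -4.38 ± 0.57 against sham (adjusted p = 0.000407). The other Hist1h2bo row had 5, 5, 14 and 10 reads in treatment, 87, 20, 36 and 52 in model and 21, 63, 35 and 65 in sham. It passed against model at -2.23 ± 0.54 (adjusted p = 0.0287), a call lost when any of treatment 1, 2 and 4 or model 1, 3 and 4 is left out (0.0547 to 0.0927), and against sham at -2.17 ± 0.49 (0.00759; 0.15 without the muscle-rich libraries). Both Hist1h2bo rows were named after their values were seen. By family, the lower calls against model were 5 of 7 tested for H2B, 2 of 4 for H3, 2 of 8 for H4, 0 of 9 for H2A and 0 of 5 for H1. Of the 5 H2B calls, 3 (H2bc18, Hist1h2bg and the Hist1h2bo row with the smaller change) are each lost when some single library is left out. Against sham the order was another, with 4 of 7 for H2B, 3 of 3 for H3, 3 of 8 for H4, 5 of 9 for H2A and 1 of 5 for H1. Differences between families were not tested.

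The other replication-dependent genes named by rule had fewer reads. The Hist1h3b row ENSRNOG00000068516, an H3 gene, had 4, 0, 6 and 5 reads in treatment, 17, 34, 32 and 20 in model and 18, 13, 25 and 26 in sham. It fell by 2.71 against model (adjusted p = 0.0303) and fell by 2.37 against sham (adjusted p = 0.0195), calls lost without treatment 1 or model 1, 3 or 4 (0.0547 to 0.0779) and without sham 3 or 4 (0.0549 to 0.0569) or the muscle-rich libraries (0.0598). H3c13, another H3 gene, had 4, 3, 4 and 5 reads in treatment, 54, 7, 16 and 32 in model and 18, 17, 32 and 18 in sham. It passed against sham (-2.01 ± 0.39, adjusted p = 0.0035) and not against model (-2.09 ± 0.62, adjusted p = 0.0554; 0.0134 without model 2). Hist1h2af, an H2A gene, had 8, 8, 4 and 5 reads in treatment, 23, 12, 14 and 9 in model and 13, 22, 21 and 23 in sham, and the Hist1h4m row ENSRNOG00000067648 had 24, 15, 32 and 12 in treatment, 32, 53, 22 and 27 in model and 57, 50, 56 and 40 in sham. Both passed against sham only, at -1.41 ± 0.42 (adjusted p = 0.0257) and -1.21 ± 0.38 (adjusted p = 0.0321), and each call is lost when any of 5 libraries is left out. These are treatment 3 or 4 and sham 2, 3 or 4 for Hist1h2af (0.06 to 0.0728), and treatment 2 or 4 and sham 1, 2 or 3 for the Hist1h4m row (0.0573 to 0.0865). Without the muscle-rich libraries both calls are lost too, at -1.35 (0.161) for Hist1h2af and -1.29 (0.145) for the Hist1h4m row.

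For rows with few reads, group totals are given with rough ratios that put 3 reads over a group in place of 0. Hist1h2bg had 0 reads in all treatment libraries against 13 in model, a rough ratio of 4.53. One Hist1h3b row had 0 against 17 (5.93), and Hist1h2ac had 0 against 12 (4.18). Against sham, Hist1h2ac had 0 reads against 34 (11.5). These are totals of 4 libraries. The rough ratios take the other group's count as exact, so they are not lower limits of the change. H2ac12 had 1 read in treatment and 23 in model, a ratio of 24.1 with a counting interval of 3.91 to 991 in reads per total. The intervals cover counting error only. By library, Hist1h2ac had 6, 0, 2 and 4 reads in model and H2ac12 had 7, 0, 4 and 12. Neither passed against model (limma adjusted p = 0.12 and 0.124), and for both genes treatment and model overlapped. The calls of Hist1h2bg and the Hist1h3b row against model are each lost when some single library is left out (0.0504 to 0.0661 and 0.0603 to 0.115).

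Summed over the 34 replication-dependent genes other than H1f2, treatment libraries held 23.4 to 29.0 RPM, against 83.8 to 159 in model and 77.5 to 115 in sham. Treatment libraries lay below all others. With H1f2 the sums were 185 to 236 in treatment, 278 to 422 in model and 234 to 340 in sham, so treatment and sham then overlapped. H1f2 (chromosome 17, 41388477 to 41392635, minus strand), a linker histone gene, had 3092, 3388, 3295 and 2734 reads in treatment, 4067, 3523, 2972 and 2876 in model and 2538, 2853, 2553 and 3837 in sham. Its groups overlapped, and its log2 fold change was 0.00 ± 0.19 against model and 0.23 ± 0.18 against sham, neither past the test (adjusted p = 0.996 and 0.368). The linker gene H1f5 had 32 reads in treatment, 94 in model and 101 in sham in sum, and passed against sham (-1.40 ± 0.48, adjusted p = 0.0456; 0.0737 to 0.125 without treatment 1, 2 or 4 or sham 2, 3 or 4; -0.87 and 0.349 without the muscle-rich libraries) and not against model (adjusted p = 0.0862).

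**Figure D4:**
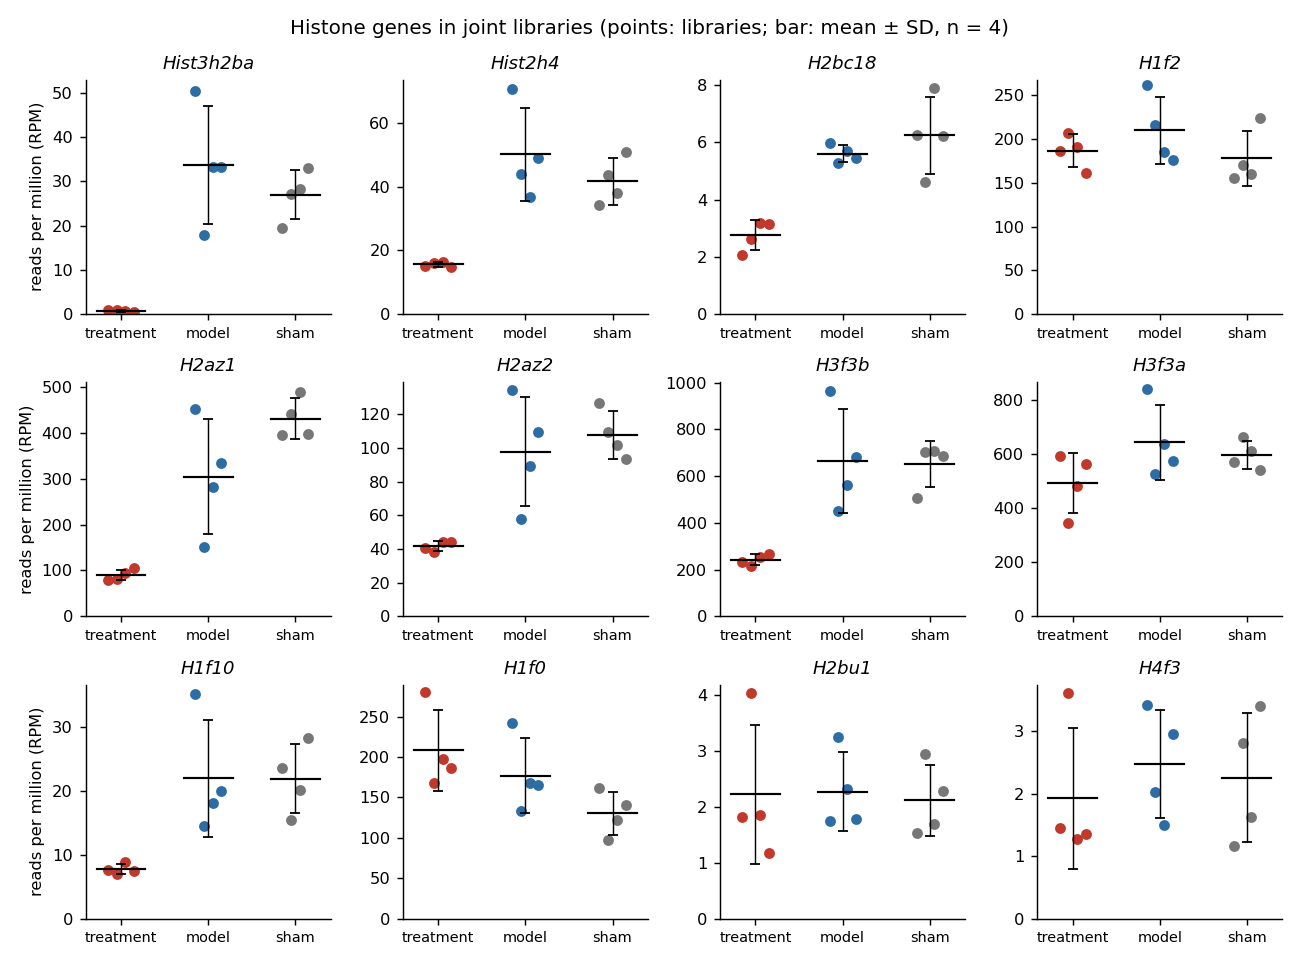
Reads scaled to library size (RPM) in each library for 12 histone genes in treatment, model and sham; points are libraries, bars are means and SD (n = 4). Hist3h2ba, Hist2h4, H2az1, H2az2, H3f3b and H1f10 are low in all 4 treatment libraries, while H1f2, H2bu1 and H4f3 overlap between groups and H1f0 is highest in treatment 1.

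Variants carried most histone reads. Summed, the 7 variants held 855 to 1234 RPM in treatment, 1333 to 2668 in model and 1781 to 2053 in sham. H2az1 (chromosome 2, 226355708 to 226358485, plus strand), 1 of 2 genes of H2A.Z, had 1323, 1348, 1626 and 1774 reads in treatment, 7019, 2455, 4525 and 5433 in model and 6433, 7352, 7814 and 6785 in sham. It fell by 1.49 ± 0.31 (SE) on the log2 scale against model (limma adjusted p = 0.0151) and fell by 2.11 ± 0.14 against sham (adjusted p = 1.14e-05). Without model 4 the first is at adjusted p = 0.0569. H2az2, the other H2A.Z gene, had 671, 630, 758 and 745 reads in treatment, 2083, 945, 1434 and 1782 in model and 2062, 1831, 1622 and 1595 in sham. Its fold was 0.499 against model (adjusted p = 0.0282) and 0.432 against sham (adjusted p = 0.000118). The first call is lost when any library but model 2 is left out (0.0508 to 0.0927). H2az1 reads were 1.97 to 2.38 times those of H2az2 in treatment, 2.60 to 3.37 in model and 3.12 to 4.82 in sham. Treatment libraries did not overlap the others in that ratio, which was not tested.

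Of the H3.3 genes, 1 passed the test and 1 did not; the difference between them was not tested. H3f3b (chromosome 13 row) had 3869, 3539, 4396 and 4498 reads in treatment, 14963, 7362, 9016 and 11068 in model and 8207, 11737, 11294 and 11750 in sham. It fell by 1.24 ± 0.23 against model (adjusted p = 0.0104) and fell by 1.26 ± 0.16 against sham (adjusted p = 0.0004). H3f3a (chromosome 10 row) had 9786, 5636, 8260 and 9491 reads in treatment, 13029, 8548, 10168 and 9358 in model and 9271, 11066, 9740 and 9237 in sham, with overlap. Its log2 fold changes were -0.23 ± 0.22 (adjusted p = 0.511) and -0.15 ± 0.18 (adjusted p = 0.566). The read ratio of H3f3a to H3f3b was 1.59 to 2.53 in treatment, 0.846 to 1.16 in model and 0.786 to 1.13 in sham. As RPKM, reads scaled by depth and model length, H3f3b averaged 110 ± 10.2 in treatment, 302 ± 100.3 in model and 296 ± 44.5 in sham, and H3f3a averaged 314 ± 70.4 in treatment, 409 ± 87.9 in model and 378 ± 33.6 in sham (SD, n = 4 each).

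Of the linker variants, H1f10 fell in both treatment comparisons and H1f0 rose against sham. H1f10 had 127, 116, 153 and 127 reads in treatment, 546, 237, 290 and 325 in model and 383, 259, 322 and 484 in sham. It fell by 1.25 against model (adjusted p = 0.0211; 0.0508 to 0.0631 without treatment 1, treatment 4 or model 4) and fell by 1.31 against sham (adjusted p = 0.00157). H1f0, the linker histone of cells that have stopped dividing, had 4635, 2749, 3403 and 3155 reads in treatment, 3748, 2172, 2688 and 2690 in model and 2621, 1624, 1950 and 2394 in sham. All 4 treatment libraries were above all sham libraries, and the model libraries overlapped both. On the log2 scale it rose by 0.82 ± 0.21 against sham (adjusted p = 0.0141) and differed by 0.40 ± 0.23 from model (adjusted p = 0.276). Without the 3 muscle-rich libraries the rise against sham is at adjusted p = 0.0795. The read ratio of H1f0 to H1f10 was 22.2 to 36.5 in treatment, 6.86 to 9.27 in model and 4.95 to 6.84 in sham. H1f8, an oocyte linker histone, had 8 reads over all libraries.

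Processed copies resemble their parents in sequence. H2az1-ps1 had 64, 68, 82 and 104 reads in treatment, 347, 180, 234 and 278 in model and 405, 406, 396 and 320 in sham, and fell in both comparisons (-1.59 ± 0.26 and -2.14 ± 0.19). That is 4.84 to 5.86% of the H2az1 reads in treatment, 4.94 to 7.33% in model and 4.72 to 6.3% in sham. H3f3a-ps9 had 119, 147, 155 and 121 in treatment, 624, 278, 344 and 377 in model and 45, 437, 401 and 385 in sham, where sham 1 was lowest. It fell by 1.42 against model (adjusted p = 0.0135) and did not pass against sham (-0.68 ± 0.68, adjusted p = 0.48), though without sham 1 it does (-1.48, adjusted p = 0.0006). It is a copy of H3.3. Its reads were 1.22 to 2.61% of those of the H3f3a row in treatment, 3.25 to 4.79% in model and 0.485 to 4.17% in sham, and 2.69 to 4.15% of those of the H3f3b row in treatment, 3.41 to 4.17% in model and 0.548 to 3.72% in sham. Treatment and model overlap in the share of H3f3b reads and not in the share of H3f3a reads. H3f3a-ps3 had 7 to 18 reads in treatment and 11 to 15 in model, and did not pass. Whether these reads come from the copies or from the parents was not tested.

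Histone genes outside the name pattern were tested beside them. Of 5 measured, 4 fell in each treatment comparison, in lists chosen with results known. Among all genes tested, 10.5% were lower against model, and 19.5% were lower and 17.3% higher against sham. H2ax, the variant of the DNA damage response, fell by 2.52 against model (adjusted p = 0.00285), and Cenpa, the centromeric H3, fell by 3.43. Macroh2a2 rose by 2.11 against sham (adjusted p = 0.00299).

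Machinery that makes and loads histones fell in part. In the list of 18 histone mRNA genes, 7 fell against model and 13 against sham, and 0 rose. Slbp, the stem-loop binding protein, fell by 1.95 (adjusted p = 0.0118) against model, and E2f2, a cell-cycle transcription factor, fell by 4.36. Npat, which activates the clusters, was at -0.46 ± 0.22 and did not pass (adjusted p = 0.193). Of 25 chaperone genes, 13 fell against model and 17 against sham. The shares lower among all genes tested were 10.5% against model and 19.5% against sham. Against model, Asf1b, a chaperone of new H3 and H4, fell by 3.33 and Chaf1a, a subunit of the complex that loads them during replication, fell by 2.05. Hjurp, which loads Cenpa, fell by 2.40, and Hira, which loads H3.3 outside replication, fell by 0.94. In the list of 28 genes of cell division and DNA replication, 26 fell in each comparison (median -2.90 against model and -3.33 against sham), such as Mki67 at -4.16 and Mcm5 at -2.91. The list summed to 354 to 584 RPM in treatment, 1521 to 6085 in model and 3306 to 4720 in sham.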

How the data were processed

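RNA-seq values for rat joint tissue came as 3 full tables of 8 libraries, 1 per comparison, and 3 lists of changed genes. Per the labels, Trizol was used for extraction and a VAHTS Universal V5 kit for the libraries. The submitters' processing notes name fastp, DESeq2 and the build mRatBN7.2. No aligner, counter or annotation release is given in the sources used here. The values the authors deposited are a normalised signal, that is gene read counts divided by 1 size factor per library and table. The deposited log2 fold changes and p-values are the authors' own and served to describe their lists. Whole reads were recovered from the steps between values (100% whole at a tolerance of 0.001 reads), and 0 genes differed between tables. For treatment 3, reads came from the treatment against sham table alone, so that library was outside the check between tables. Its values in the treatment against model table still entered that fit.

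Each comparison was tested within its own table with limma 3.58.1 in R 4.3.3 on log2(value + 1), dropping genes whose mean value was under 1, with Benjamini-Hochberg adjustment over all genes and a threshold of 0.05. Fold changes on this scale understate the change of low genes. As alternatives, edgeR 4.0.16, DESeq2 1.42.0 and voom ran on the recovered reads, and other pseudocounts, filters, scalings and left-out libraries were tried. Groups came from the sample titles; the replicate numbers do not pair the libraries. The members, lists and rule for named genes were chosen with earlier results of these data known. Named are the 2 replication-dependent genes per family with the most reads, H1f0, H1f10, H2az1, H2az2, H3f3a and H3f3b, the 5 lowest and 5 highest called changes per comparison whose mean log2 CPM reached 1, and the 2 genes of smallest p in each other list. Other genes named in the text (among them H2bu1, H2ac1, the Hist1h2bo rows, rows with few reads, and list genes such as Npat, Hira and Mcm5) were chosen after their values were seen.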

Additional observations from a re-analysis of the deposited data

Results flagged for a closer look

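Of 54 groups of 4 libraries over the named genes, 6 held 1 library whose gap to the nearest other was large against the whole range of its group; chance flags about 1 in 20 groups. H3f3a-ps9 had 45 reads in sham 1, against 385 to 437 in the other sham libraries. In the same library H3f3b was lowest of its group at 8207 reads, and Hist1h2af was lowest at 13. H2az1-ps1 was lowest in sham 4 at 320 reads, H3c13 was highest in sham 3 at 32 reads, and the Hist1h3b row ENSRNOG00000068516 had 0 reads in treatment 2.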

How the results depend on the processing

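Fitted with the replicate block, the count of histone genes lower in treatment against model was 9 in place of 15, all 9 among the 15, although the replicate numbers do not pair the libraries (correlations of -0.44 to 0.24 between same-numbered libraries). Leaving out 1 library gave 6 to 18, where fewer libraries enter the fit. Against sham, the lower count was 13 and the higher count 0 without the muscle-rich libraries, in place of 21 and 1, and 15 to 21 with 1 library left out. In model against sham the lower count was 0 to 1 with 1 library left out. Of 966 log2 fold changes of named genes under alternatives, 873 kept their direction and side of the threshold, 57 lost a call, 4 gained one and 32 changed sign, none of them a call; the cause was not tested.

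Sign changes in model against sham, with 1 library left out, ran from -0.28 to 0.13 for H1f10, -0.28 to 0.31 for H1f5, -0.0083 to 1.11 for H2ac25, -0.36 to 0.035 for H2az2, -0.35 to 0.59 for H3c13, -0.0304 to 0.19 for H3f3a, -0.0331 to 1.07 for H3f3a-ps9 and -0.20 to 0.16 for H3f3b. H1f10 was 0.0115 with edgeR and 0.0125 with DESeq2, H2ac25 -0.0471 with DESeq2 and H3f3b -0.13 with voom. Without the muscle-rich libraries, an alternative chosen for single genes after seeing the data, H1f5 was 0.47 and H3c13 -0.10 in model against sham, H1f2 -0.0842 in treatment against model, and H3f3a 0.0408 and H3f3a-ps9 0.0468 in treatment against sham. H1f2 in treatment against model ran from -0.086 to 0.12 with 1 library left out, and was -0.0045 with DESeq2 and -0.0057 with other scaling factors (TMM). Depth limits the 22 replication-dependent genes that average under 10 reads per library. Over all genes in treatment against model, limma called 2870, edgeR on the recovered reads 2660, DESeq2 4870 and voom 5674; in treatment against sham the counts were 7485, 6833, 8164 and 8621 in that order. Replication-dependent genes lower in treatment against model numbered 3 with the replicate block and 6 with edgeR, with voom or at a mean value of at least 10, in place of 9; against sham they numbered 9 with voom, and 10 with edgeR or at that filter, in place of 16.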
